A study of Mus musculus with 12 samples.

Results

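The genes described here are those of the tumour necrosis factor (TNF) superfamily and its signalling machinery. They were taken from the array by gene name: Tnf, the Tnfsf ligands, the Tnfrsf receptors (without Tnfrsf6), the Tnfaip genes, the Traf adaptors, the Birc genes, the Nfkb genes and Rel, Rela and Relb. The rule found 102 probes for 76 genes, of which 56 were among the 15061 genes that could be tested. In 11 cases the array's gene name is an older one. Cd27, Cd70, Relt, Xiap, Naip1, Naip2, Naip3, Naip5, Naip6, Psmg2 and Tonsl are given here under their current symbols. Psmg2, Tonsl and Traf3ip1 matched by name only and belong to other processes.

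The study measured RNA on 12 one-colour mouse arrays to ask how knockdown of Hnrnpa0, a gene of the region lost in del(5q) myeloid disease, alters myeloid cell fate. PUER is a mouse myeloid line grown in IL-3; it was made from PU.1-null cells and carries PU.1 joined to the hormone-binding part of the estrogen receptor, which 4-hydroxytamoxifen (4-OHT) activates. All cells carried a GFP-marked retrovirus, either the control construct or one expressing a hairpin (shRNA) that targets Hnrnpa0, and were sorted on GFP. The 4 groups of 3 arrays (replicates A, B and C) were control cells before 4-OHT, control cells after 24 h in 2 nM 4-OHT, shRNA cells before 4-OHT and shRNA cells after 24 h in 2 nM 4-OHT. The series describes 3 independent experiments, with its own clones for each vector. No array is labelled as kept in vehicle. The response includes any effect of the drug itself, and any effect of time in culture cannot be told apart from the response.

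TNF-family ligands are mostly trimeric membrane or secreted cytokines, and their receptors signal through TRAF adaptors, cellular inhibitor of apoptosis (IAP) ligases and, for receptors with a death domain, cell-death adaptors. A main output is NF-kB, a family of dimers that IkB proteins hold inactive until they are degraded. The canonical branch releases Rela and Nfkb1 dimers; the non-canonical branch, set off by receptors such as those for lymphotoxin and BAFF, processes Nfkb2 and releases its dimer with Relb.

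The promoters below are shown because they belong to members with the largest changes in control cells that hold a matched motif upstream of the start, at most 6 in all. Sequence is from RefSeq on GRCm38.p6, read 5′ to 3′ on the strand of the gene. Capitals mark matches on either strand to the NF-kB consensus of textbooks or to GAGGAAG, the core of PU.1 sites.
Tnfrsf9 (chr4:150927916-150927998, plus strand): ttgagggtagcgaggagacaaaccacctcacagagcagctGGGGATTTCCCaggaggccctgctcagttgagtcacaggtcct
Tnf (chr17:35202079-35202165, minus strand): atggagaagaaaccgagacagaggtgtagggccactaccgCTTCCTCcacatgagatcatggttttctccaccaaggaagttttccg
Tnfrsf25 (chr4:152116243-152116342, plus strand): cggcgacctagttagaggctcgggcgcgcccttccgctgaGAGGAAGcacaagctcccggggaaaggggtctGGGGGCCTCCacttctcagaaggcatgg
Nfkbie (chr17:45555554-45555643, plus strand): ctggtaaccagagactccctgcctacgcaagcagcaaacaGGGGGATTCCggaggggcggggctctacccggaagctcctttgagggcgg
Traf3ip3 (chr1:193201547-193201692, minus strand): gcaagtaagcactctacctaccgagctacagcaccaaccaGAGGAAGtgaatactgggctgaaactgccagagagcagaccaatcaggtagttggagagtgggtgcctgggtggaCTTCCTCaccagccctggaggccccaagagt
Tnfrsf1b (chr4:145247032-145247118, minus strand): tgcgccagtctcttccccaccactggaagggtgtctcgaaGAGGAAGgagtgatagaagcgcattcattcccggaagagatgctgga
In these windows Tnfrsf9 and Nfkbie hold NF-kB matches, Tnf, Traf3ip3 and Tnfrsf1b hold PU.1 core matches, and Tnfrsf25 holds both. The 2 NF-kB matches of Tnfrsf9 on the plus strand overlap. RefSeq promoters, from 250 bases before to 50 bases after a start, were matched for 60 of the 76 genes. The NF-kB consensus lay in the promoters of 14 of the 60 (23.3%), against 9.55% of all 27025 genes in the table. The PU.1 core lay in 12 of 60 (20%), against 15.4% of all genes. Among members with a promoter, the consensus was in 4 of 16 that rose in control cells, 3 of 14 that fell and 4 of 15 that did not pass. The same counts for the PU.1 core were 4 of 16, 4 of 14 and 2 of 15. A match is a description of the letters and not evidence of binding.

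Levels are log2 signal relative to the 75th percentile of the array, so a negative value is a signal below that percentile, and each is quoted for replicates A, B and C in that order. Changes are log2 differences with the standard error (SE) of a limma fit over all 12 arrays. A gene was called where limma's Benjamini-Hochberg adjusted p over all 15061 genes was under 0.05. Where a group was not well above background on any array, the fold is a lower bound, written "at least", taken against the dimmest signal that the scanner software still marked as well above background there.

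The 75th percentile of signal lay between 1196 and 2583 over the arrays, 50.3% to 55.7% of spots were well above background, and arrays of a group correlated with r of 0.990 to 0.995 over genes. Hnrnpa0 was lower in shRNA cells by -1.54 (SE 0.18, adjusted p = 0.0127) before and -2.10 (SE 0.18, adjusted p = 0.00512) after 4-OHT. With slide as a fixed block these were -1.38 (adjusted p = 0.114) and -1.38 (adjusted p = 0.0897), as a random block -1.57 (adjusted p = 0.0943) and -1.81 (adjusted p = 0.0526), so neither passed. Without control replicate C before 4-OHT the first was -1.58 (adjusted p = 0.0691). All 9 myeloid markers were well above background on at least 3 arrays, against 4 of 7 T cell, 2 of 6 B cell and 2 of 6 stromal and endothelial markers. Among the myeloid markers Ptprc (CD45) and the tested probe of Csf1r were well above background only after 4-OHT, on all 6 arrays. The defining genes Cd3g, Cd8a, Ms4a1, Pax5, Col1a1, Col3a1, Cdh5 and Kdr were well above background on no array. Arrays came on 3 slides. Control cells before 4-OHT were all on slide 1, with replicate A of the control cells after it. Replicates B and C of the latter were on slide 2, beside shRNA replicates A and B before 4-OHT. The remaining shRNA array before 4-OHT (C) was on slide 3 with all shRNA arrays after it. No slide held both vectors at the same time point, so within a time vector and slide cannot be told apart, and a fit with slide as a block borrows from the other time.

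In control cells 4-OHT changed most of the measured TNF-family genes, in both directions. Of 56 tested members, 19 rose and 17 fell, which is 64.3%, against 40.5% of all genes tested (17.5% rose and 23.0% fell). The median size of change was 0.505 for the members and 0.26 for all genes, while the signed medians were -0.03 and -0.07. Among the rises were Tnf, at 6.65-fold, and its family's adaptor Traf5, at least 4.67-fold, while the cytokine Tnfsf13b (BAFF) fell 14.2-fold and the receptor Tnfrsf9 at least 7.01-fold. Groups did not overlap for 40 members (background 51.0%).

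The shRNA cells gave the same counts, 19 rises and 17 falls among 56 members (64.3%), against 38.3% of all genes (16.5% rose and 21.8% fell). Groups did not overlap for 39 members (background 51.5%). Of the members called, 32 were called in both vectors and in the same direction, none in opposite directions, 4 in control cells only and 4 in shRNA cells only. The 2 responses share no array. Over the 56 members their log2 changes had a Pearson r of 0.981 and a Spearman rho of 0.966, given as a description since the members share arrays. Among the 50 members well above background on all 12 arrays, 33 were called in control cells (66%, background 41.8%) and 31 in shRNA cells (62%, background 39.5%).

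**Figure D1:**
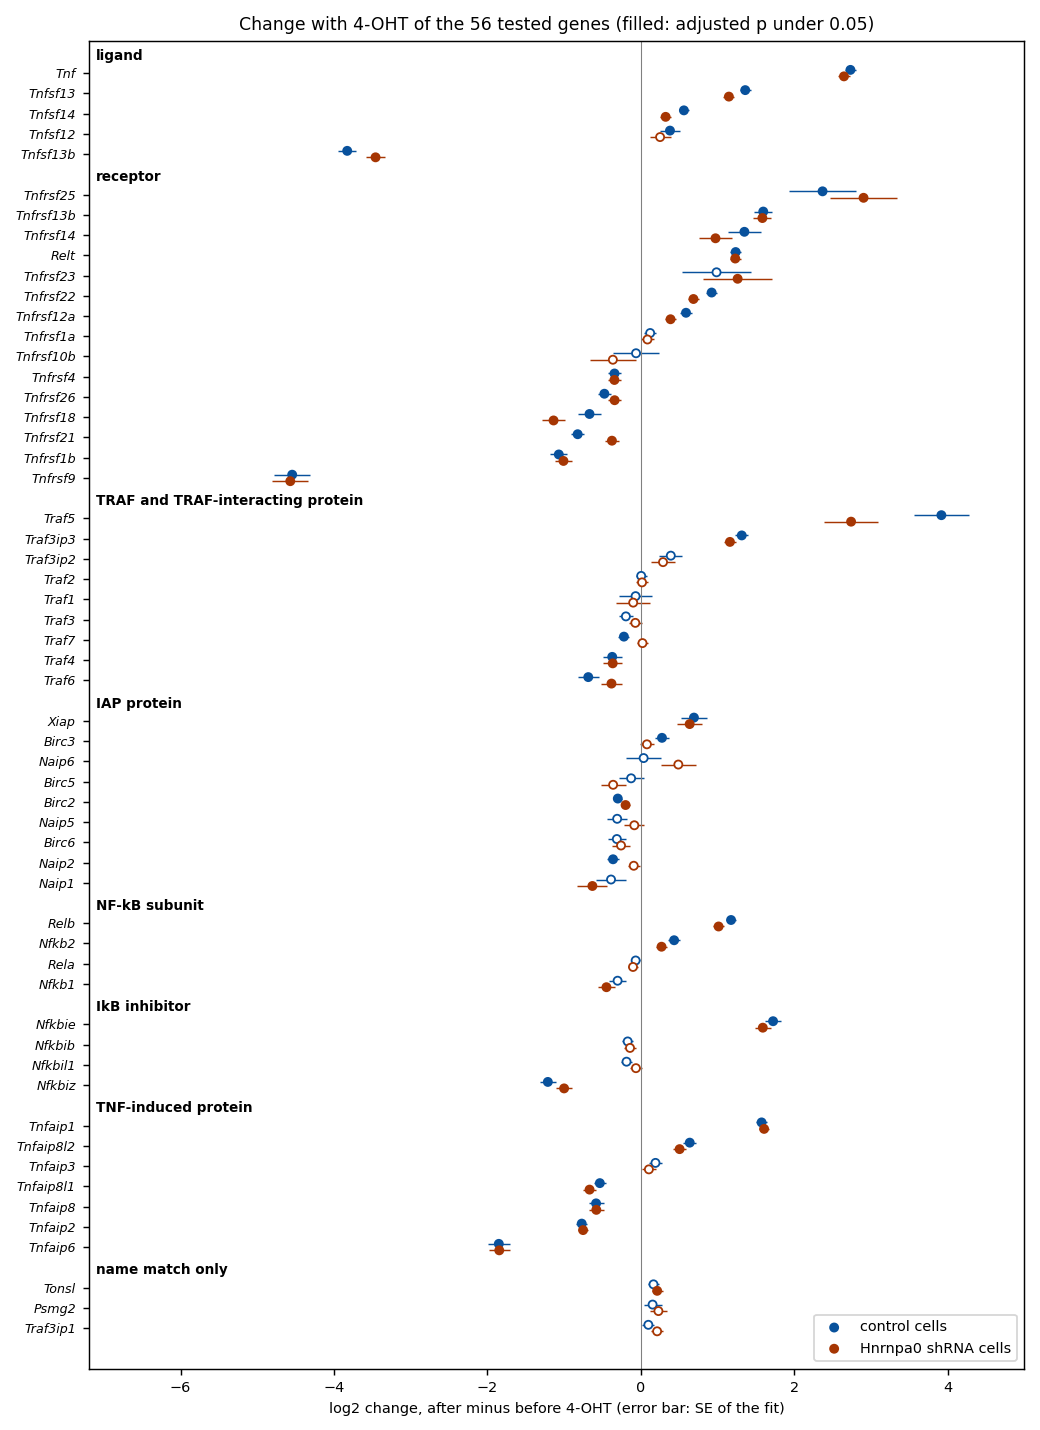
Log2 change with 4-OHT (horizontal axis) of the 56 tested members, grouped by role, in control cells (blue) and shRNA cells (brown); points are fitted changes, bars the SE of the fit, and filled points have an adjusted p under 0.05. Tnfrsf9 lies at the left end at -4.55 and -4.57. Traf5, at 3.92 and 2.74, and Tnfrsf25, at 2.37 and 2.90, lie at the right end of the blue and of the brown points, and all 3 were compared with a group below or mostly below background.

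Of the 13 ligand genes, 5 were tested. In control cells 4 rose and Tnfsf13b fell; in shRNA cells 3 rose and Tnfsf13b fell. Tnf encodes the founding cytokine of the family and is made by activated macrophages. Its level was -1.56, -1.64 and -1.46 in control cells before 4-OHT and 1.22, 1.19 and 1.13 after it. The shRNA arrays read -1.49, -1.41 and -1.25 before and 1.30, 1.25 and 1.25 after. Every array after 4-OHT lay above every array before it, with both vectors at like levels at each time. The change was 2.73 (SE 0.07, adjusted p = 1.45e-09), or 6.65-fold, in control cells and 2.65 (SE 0.07, adjusted p = 1.99e-09), or 6.27-fold, in shRNA cells. Within slide 1 the control change was 2.77 and within slide 3 the shRNA change was 2.52.

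Tnfsf13b encodes BAFF, a survival factor for B cells that myeloid cells make. Its brighter probe read 0.64, 0.96 and 0.62 in control cells before 4-OHT and -3.14, -2.90 and -3.22 after it. In shRNA cells the levels were 0.94, 0.82 and 0.89 before and -2.72, -2.39 and -2.62 after. The groups before and after lay far apart in both vectors. The fall was 14.2-fold in control cells (log2 -3.83, SE 0.12, adjusted p = 4.04e-09) and 10.99-fold in shRNA cells (log2 -3.46, SE 0.12, adjusted p = 8.56e-09). A second, dimmer probe of the gene moved the same way by less, -0.67 in control cells and -0.96 in shRNA cells.

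Tnfsf13 encodes APRIL, a relative of BAFF that binds some of the same receptors, and it moved in the other direction. It read 2.94, 2.91 and 2.94 in control cells before 4-OHT and 4.46, 4.23 and 4.18 after it. Levels in shRNA cells were 2.979, 2.997 and 2.990 before and 4.16, 4.12 and 4.13 after. The rise was 2.57-fold in control cells (log2 1.36, SE 0.07, adjusted p = 1.39e-07) and 2.22-fold in shRNA cells (log2 1.15, SE 0.07, adjusted p = 6.09e-07), with no overlap between groups. Tnfsf14 (LIGHT), a ligand of the lymphotoxin beta receptor and of Tnfrsf14, read 2.43, 2.39 and 2.32 before and 2.99, 2.94 and 2.90 after 4-OHT in control cells. Its rise was 0.56 (SE 0.07, adjusted p = 6.66e-05) there and 0.32 (SE 0.07, adjusted p = 0.00320) in shRNA cells. Tnfsf12 (TWEAK) rose by 0.38 (SE 0.14, adjusted p = 0.0468) in control cells, where its groups overlapped, and gave 0.25 (adjusted p = 0.170) in shRNA cells. The Tnfsf12 call was kept in only 3 of the 12 fits that left out an array; without control replicate A after 4-OHT it gave 0.25 (adjusted p = 0.146).

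The other 8 ligand genes were not tested. Tnfsf8, Tnfsf9, Tnfsf10, Tnfsf15 and Tnfsf18 were well above background on no array, and Tnfsf4 and Tnfsf11 on 1 array. Cd70 was well above background on 2 arrays.

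**Figure D2:**
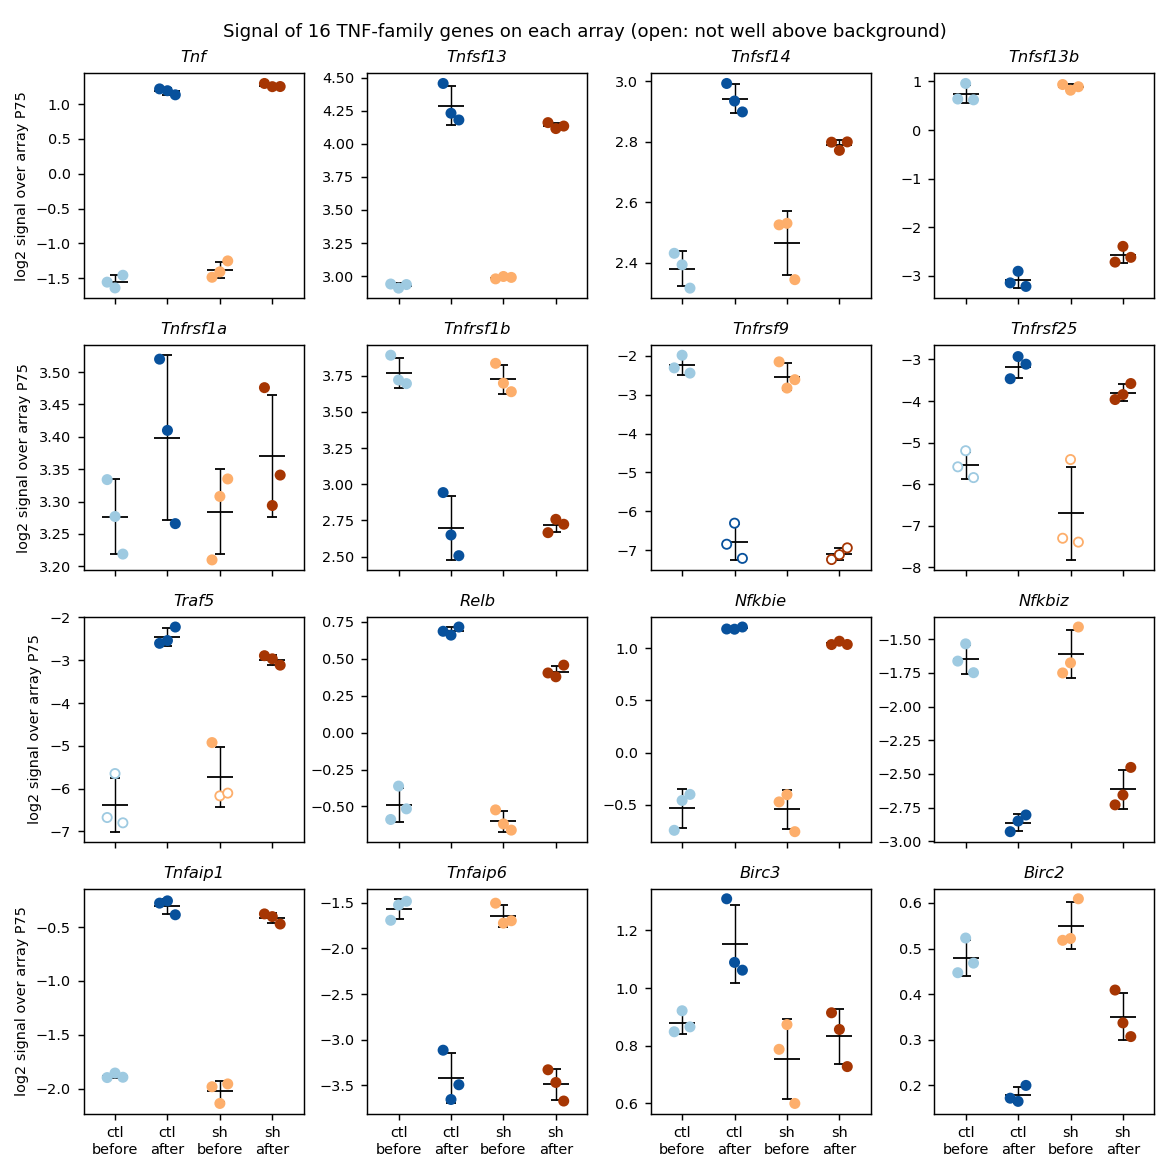
Log2 signal relative to the array's 75th percentile (vertical axis, a scale of its own for each gene) of 16 members in the 4 groups; each point is an array, filled where the probe is well above background, and bars give the mean and SD of 3 arrays. Tnf, Tnfsf13, Relb, Nfkbie and Tnfaip1 sit higher after 4-OHT on every array of both vectors, and Tnfsf13b, Tnfrsf1b, Tnfrsf9, Nfkbiz and Tnfaip6 sit lower on every array.

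Of 22 receptor genes 15 were tested. In control cells 6 rose and 6 fell, and in shRNA cells 7 rose and 6 fell. Tnfrsf9 (4-1BB, CD137) fell in both vectors. It is a costimulatory receptor that signals through TRAF1 and TRAF2. It read -2.31, -1.98 and -2.44 in control cells before 4-OHT and -6.85, -6.31 and -7.21 after it. The shRNA cells gave -2.15, -2.83 and -2.61 before and -7.24, -7.12 and -6.94 after. A second, dimmer probe was well above background on 1 array, with raw changes of -0.89 in control and 0.06 in shRNA cells. On the brighter probe all 6 arrays before 4-OHT were well above background and none of the 6 after it was. The fall was therefore at least 7.01-fold in control cells (fitted log2 -4.55, SE 0.24, adjusted p = 1.18e-07) and at least 6.22-fold in shRNA cells (fitted log2 -4.57, SE 0.24, adjusted p = 1.42e-07).

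The receptors of TNF itself differed from each other. Tnfrsf1a encodes TNFR1, the death-domain receptor present on most cells, and read 3.33, 3.28 and 3.22 in control cells before 4-OHT and 3.52, 3.41 and 3.27 after it. Its groups overlapped, and the change of 0.12 (SE 0.08, 95% interval -0.06 to 0.30, adjusted p = 0.270) did not pass. In shRNA cells the change was 0.09 (SE 0.08, 95% interval -0.09 to 0.27, adjusted p = 0.423). Tnfrsf1b encodes TNFR2, which lacks a death domain, and read 3.89, 3.72 and 3.69 in control cells before 4-OHT and 2.94, 2.65 and 2.51 after it. In shRNA cells the levels were 3.83, 3.70 and 3.64 before and 2.67, 2.76 and 2.72 after. It fell 2.10-fold in control cells (log2 -1.07, SE 0.11, adjusted p = 1.98e-05) and 2.01-fold in shRNA cells (log2 -1.01, SE 0.11, adjusted p = 3.42e-05). Its second probe fell in raw means by 0.62 and 0.63.

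Receptors that rose in both vectors included Tnfrsf13b, Tnfrsf14 and Tnfrsf25. Tnfrsf13b (TACI), which binds BAFF and APRIL, read -3.94, -4.07 and -3.91 in control cells before 4-OHT and -2.38, -2.57 and -2.18 after it. Its rise was 3.02-fold in control cells (log2 1.60, SE 0.12, adjusted p = 1.76e-06) and 2.999-fold in shRNA cells (log2 1.59, SE 0.12, adjusted p = 2.19e-06). A second probe of Tnfrsf13b was well above background on no array and did not show the rise (-0.65 and -0.63 in raw means). The other receptors of BAFF and APRIL, Tnfrsf13c and Tnfrsf17, were well above background on no array. Tnfrsf14 (HVEM), a receptor of LIGHT, read -4.19, -3.32 and -3.46 before and -2.25, -2.41 and -2.27 after 4-OHT in control cells. It rose by 1.35 (SE 0.22, adjusted p = 0.000569) there and by 0.97 (SE 0.22, adjusted p = 0.00502) in shRNA cells. Its dimmer probe gave 1.24 and 1.04.

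Tnfrsf25 (DR3), a death-domain receptor, read -5.58, -5.19 and -5.84 in control cells before 4-OHT, never well above background, and -3.46, -2.93 and -3.11 after it. The rise was at least 2.85-fold in control cells (fitted log2 2.37, SE 0.44, adjusted p = 0.00148) and at least 2.65-fold in shRNA cells (fitted log2 2.90, SE 0.44, adjusted p = 0.000415). A second probe of Tnfrsf25 was well above background on no array, also after 4-OHT. Relt, a receptor of lymphoid tissue, rose by 1.24 (SE 0.07, adjusted p = 3.13e-07) in control cells, from -1.28, -1.31 and -1.35 to -0.12, 0.02 and -0.12. The rise in shRNA cells was 1.23 (SE 0.07, adjusted p = 3.96e-07). Tnfrsf22, a decoy receptor of mice, rose by 0.92 (SE 0.07, adjusted p = 2.08e-06) and 0.69 (SE 0.07, adjusted p = 2.24e-05). Tnfrsf12a, the receptor of TWEAK, rose by 0.59 (SE 0.08, adjusted p = 0.000115) and 0.39 (SE 0.08, adjusted p = 0.00223). Tnfrsf23, a close relative of Tnfrsf22, gave 0.99 (adjusted p = 0.111) in control cells and 1.26 (SE 0.45, adjusted p = 0.0494) in shRNA cells. That call was kept in 3 of 12 fits leaving out an array, and without shRNA replicate B before 4-OHT it gave 1.01 (adjusted p = 0.160).

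Further falls were found in Tnfrsf21, Tnfrsf18, Tnfrsf26 and Tnfrsf4. Tnfrsf21 (DR6), a death-domain receptor, read 1.63, 1.72 and 1.72 before and 0.70, 0.93 and 0.98 after 4-OHT in control cells. It read 1.69, 1.74 and 1.92 before and 1.33, 1.44 and 1.44 after in shRNA cells. The fall was -0.82 (SE 0.09, adjusted p = 3.06e-05) in control and -0.38 (SE 0.09, adjusted p = 0.00667) in shRNA cells. Of its 3 probes a second, brighter than the one tested, gave -0.51 and -0.35. The control value of that probe rested on 1 array before 4-OHT and 2 after it. The dimmest gave 0.08 and 0.65, so the direction depends on the probe in both vectors. Tnfrsf18 (GITR), a costimulatory receptor of T cells, fell by -0.67 (SE 0.15, adjusted p = 0.00543) and -1.14 (SE 0.15, adjusted p = 0.000187). Tnfrsf26, a relative of Tnfrsf22, fell by -0.48 (SE 0.09, adjusted p = 0.00152) and -0.34 (SE 0.09, adjusted p = 0.0115). Tnfrsf4 (OX40) fell by -0.34 (SE 0.09) in both, with adjusted p of 0.00975 in control and 0.0104 in shRNA cells. Tnfrsf10b, the mouse TRAIL receptor, was near background, and its change was -0.06 (adjusted p = 0.892) in control and -0.37 (adjusted p = 0.365) in shRNA cells.

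The 7 receptor genes not tested were Cd27, Tnfrsf8, Tnfrsf11b, Tnfrsf13c, Tnfrsf17 and Tnfrsf19, well above background on no array, and Tnfrsf11a (RANK), on 1 array.

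The TRAF adaptors and TRAF-interacting proteins gave 9 tested genes, of which 2 rose and 3 fell in control cells and 2 rose and 2 fell in shRNA cells. Traf5, an adaptor of lymphotoxin beta receptor and CD40 signalling, rose in both vectors. It read -6.67, -5.65 and -6.80 before 4-OHT, not well above background on any array, and -2.60, -2.54 and -2.22 after it. The shRNA arrays read -4.92, -6.17 and -6.11 before, well above background only in replicate A, and -2.89, -2.97 and -3.12 after. The rise was at least 4.67-fold in control cells (fitted log2 3.92, SE 0.36, adjusted p = 8.30e-06) and passed in shRNA cells too (fitted log2 2.74, SE 0.36, adjusted p = 0.000134). With 1 of 3 shRNA arrays above background before 4-OHT, no exact fold is given there, and the fitted values do not rank the vectors. The difference between the responses was -1.18 and did not pass.

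Traf3ip3, a TRAF3-interacting protein, read -0.19, -0.26 and -0.29 in control cells before 4-OHT and 1.26, 0.97 and 0.96 after it. It rose by 1.32 (SE 0.08, adjusted p = 4.58e-07) in control and 1.16 (SE 0.08, adjusted p = 1.42e-06) in shRNA cells. Traf6, the adaptor shared with Toll-like and interleukin-1 receptors, fell by -0.69 (SE 0.14, adjusted p = 0.00235) in control cells, from -1.01, -0.97 and -0.97 to -1.79, -1.74 and -1.48. In shRNA cells it fell by -0.38 (SE 0.14, adjusted p = 0.0494), a call that was lost in 9 of 12 fits leaving out an array and was -0.22 (adjusted p = 0.136) without shRNA replicate C before 4-OHT. A second Traf6 probe gave -1.14 and -1.12.

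Traf4 fell by -0.37 (SE 0.12) in both vectors (adjusted p = 0.0324 in control and 0.0373 in shRNA cells). Without control replicate C after 4-OHT the control value was -0.27 (adjusted p = 0.119), and without shRNA replicate B after 4-OHT the shRNA value was -0.34 (adjusted p = 0.108). Its second probe gave -0.85 and -1.01. Traf7 fell by -0.22 (SE 0.07, adjusted p = 0.0294) in control cells and gave 0.02 (adjusted p = 0.835) in shRNA cells. Without control replicate C before 4-OHT the Traf7 fall was -0.20 (adjusted p = 0.0979). Traf2, the adaptor of both TNF receptors' NF-kB arm, read 2.40, 2.32 and 2.39 before and 2.52, 2.34 and 2.27 after 4-OHT in control cells. Its change was 0.0043 (95% interval -0.16 to 0.17, adjusted p = 0.971) there and 0.015 (95% interval -0.15 to 0.18, adjusted p = 0.885) in shRNA cells. Traf1, a TRAF without a RING domain that is itself an NF-kB target, read -4.39, -4.06 and -4.08 before and -4.16, -3.83 and -4.75 after in control cells. Its change was -0.07 (95% interval -0.56 to 0.42, adjusted p = 0.832). Traf3 and Traf3ip2 (Act1) did not pass in either vector.

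Among 11 IAP genes 9 were tested. In control cells 2 rose and 2 fell, and in shRNA cells 1 rose and 2 fell. Birc2 and Birc3 encode cIAP1 and cIAP2, the ubiquitin ligases of TNF receptor complexes. Birc2 read 0.45, 0.52 and 0.47 in control cells before 4-OHT and 0.17, 0.17 and 0.20 after it, a fall of -0.30 (SE 0.06, adjusted p = 0.00158). In shRNA cells it fell by -0.20 (SE 0.06, adjusted p = 0.0180), or -0.19 (adjusted p = 0.0628) without replicate B after 4-OHT. Birc3 read 0.85, 0.92 and 0.86 before and 1.31, 1.09 and 1.06 after in control cells, a rise of 0.28 (SE 0.09, adjusted p = 0.0363) that was 0.20 (adjusted p = 0.105) without replicate A after 4-OHT. In shRNA cells Birc3 gave 0.08 (adjusted p = 0.524). Its dimmer probe gave 0.32 and 0.82.

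Xiap, the direct caspase inhibitor, read -2.14, -2.11 and -2.33 in control cells before 4-OHT and -1.82, -1.38 and -1.31 after it. It rose by 0.69 (SE 0.17, adjusted p = 0.00683) in control and 0.64 (SE 0.17, adjusted p = 0.0117) in shRNA cells. A fixed slide block gave 0.37 (adjusted p = 0.0225) and 0.28 (adjusted p = 0.0717). Birc5 (survivin), which acts in mitosis, was saturated on 10 of 12 arrays, so its changes of -0.13 (adjusted p = 0.575) and -0.36 (adjusted p = 0.105) are limited by the scanner. The Naip genes are close paralogues that sense bacterial proteins, and their probes may share transcripts. Naip2 fell by -0.36 (SE 0.08, adjusted p = 0.00390) in control cells, from 1.57, 1.60 and 1.55 to 1.13, 1.24 and 1.26, and gave -0.09 (adjusted p = 0.377) in shRNA cells. Naip1 gave -0.39 (adjusted p = 0.147) in control cells and fell by -0.63 (SE 0.20, adjusted p = 0.0275) in shRNA cells. It was well above background there on 1 of 3 arrays before 4-OHT and on none after it, so the fall is given as at least 1.06-fold. Without shRNA replicate A before 4-OHT the fitted value was -0.46 (adjusted p = 0.101). Birc6, Naip5 and Naip6 did not pass in either vector. Birc7 and Naip3 were not tested, with 1 array and no array well above background.

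Of 5 NF-kB subunit genes 4 were tested. In control cells 2 rose, and in shRNA cells 2 rose and 1 fell. Relb and Nfkb2, the pair of the non-canonical branch, rose in both vectors, while Rela did not pass in either. Relb read -0.59, -0.36 and -0.52 in control cells before 4-OHT and 0.69, 0.66 and 0.71 after it. Levels in shRNA cells were -0.52, -0.62 and -0.66 before and 0.40, 0.38 and 0.46 after. It rose 2.26-fold in control cells (log2 1.18, SE 0.07, adjusted p = 3.38e-07) and 2.02-fold in shRNA cells (log2 1.01, SE 0.07, adjusted p = 1.28e-06). Every array after 4-OHT lay above every array before it.

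Nfkb2 read 0.83, 0.77 and 0.76 before and 1.24, 1.19 and 1.23 after 4-OHT in control cells, a rise of 0.43 (SE 0.08, adjusted p = 0.00106). The shRNA cells gave 0.81, 0.74 and 0.77 before and 0.91, 1.01 and 1.22 after, a rise of 0.27 (SE 0.08, adjusted p = 0.0181) that was 0.25 (adjusted p = 0.0621) without replicate B before 4-OHT. Rela, the transactivating subunit of the canonical dimer, read 2.63, 2.63 and 2.73 before and 2.60, 2.53 and 2.65 after in control cells. Its change was -0.07 (95% interval -0.20 to 0.06, adjusted p = 0.407) in control and -0.10 (95% interval -0.23 to 0.03, adjusted p = 0.196) in shRNA cells. Nfkb1, the precursor of p50, read 2.02, 1.72 and 1.82 before and 1.67, 1.51 and 1.46 after in control cells, a change of -0.30 (SE 0.11, adjusted p = 0.0528) that did not pass. In shRNA cells the levels were 1.77, 1.68 and 1.45 before and 1.26, 1.26 and 1.04 after, a fall of -0.45 (SE 0.11, adjusted p = 0.00930). With slide as a fixed block it was -0.27 (adjusted p = 0.170) and did not pass. Its 3 dimmer probes went the other way in shRNA cells, by 0.42, 0.57 and 0.49, so the direction of Nfkb1 depends on the probe. Rel, which encodes c-Rel, was well above background on no array.

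Of 5 IkB genes 4 were tested, with 1 rise and 1 fall in each vector. Nfkbie encodes IkB epsilon, an inhibitor of Rela and c-Rel dimers, and read -0.74, -0.46 and -0.40 in control cells before 4-OHT and 1.18, 1.18 and 1.20 after it. The shRNA arrays read -0.47, -0.40 and -0.76 before and 1.03, 1.07 and 1.04 after. The rise was 3.30-fold (log2 1.72, SE 0.11, adjusted p = 4.39e-07) in control and 3.01-fold (log2 1.59, SE 0.11, adjusted p = 9.85e-07) in shRNA cells. Nfkbiz encodes IkB zeta, a nuclear coactivator of inflammatory genes, and read -1.66, -1.53 and -1.75 before and -2.93, -2.85 and -2.81 after in control cells. Levels in shRNA cells were -1.75, -1.68 and -1.41 before and -2.73, -2.66 and -2.45 after. The fall was 2.32-fold (log2 -1.21, SE 0.11, adjusted p = 6.19e-06) in control and 2.00-fold (log2 -1.0005, SE 0.11, adjusted p = 2.99e-05) in shRNA cells.

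Nfkbib and Nfkbil1 did not pass in either vector. Nfkbia, which encodes IkB alpha, the main feedback inhibitor, was left out of the fit because its spots carried outlier marks on 7 of 12 arrays. With marked spots kept, a setting chosen after seeing the data, it read 4.95, 5.11 and 5.03 in control cells before 4-OHT and 4.54, 4.38 and 4.44 after it. The change in that fit was -0.58 (SE 0.08, adjusted p = 0.000136) in control and -0.70 (SE 0.08, adjusted p = 3.49e-05) in shRNA cells.

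The Tnfaip genes, a set that includes relatives of Tnfaip8, did not move as a unit. Of 7 tested, 2 rose and 4 fell in each vector. Tnfaip1, a ubiquitin-ligase adaptor, read -1.90, -1.85 and -1.89 in control cells before 4-OHT and -0.28, -0.26 and -0.39 after it, a rise of 1.57 (SE 0.07, adjusted p = 2.99e-08). The rise in shRNA cells was 1.61 (SE 0.07, adjusted p = 3.50e-08). Tnfaip8l2 (TIPE2), a negative regulator of immune cells, rose by 0.64 (SE 0.08, adjusted p = 0.000147) and 0.51 (SE 0.08, adjusted p = 0.000823). Tnfaip6 (TSG-6), a hyaluronan-binding secreted protein, read -1.69, -1.53 and -1.49 before and -3.11, -3.65 and -3.49 after in control cells. It fell 3.61-fold in control (log2 -1.85, SE 0.14, adjusted p = 2.08e-06) and 3.59-fold in shRNA cells (log2 -1.85, SE 0.14, adjusted p = 2.45e-06).

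Tnfaip2 fell by -0.77 (SE 0.07, adjusted p = 7.88e-06) in control and -0.75 (SE 0.07, adjusted p = 1.08e-05) in shRNA cells. Tnfaip8 fell by -0.58 in both vectors (SE 0.10, adjusted p = 0.000776 and 0.000900). Its relative Tnfaip8l1 fell by -0.53 and -0.67 (SE 0.08, adjusted p = 0.000390 and 8.77e-05). Tnfaip3 encodes A20, the ubiquitin-editing brake on NF-kB and a textbook NF-kB target. It read -1.19, -1.002 and -1.29 in control cells before 4-OHT and -1.04, -1.03 and -0.84 after it. Its groups overlapped, with a change of 0.19 (95% interval -0.002 to 0.38, adjusted p = 0.108) in control and 0.10 (95% interval -0.09 to 0.30, adjusted p = 0.361) in shRNA cells. Tnfaip8l3 was well above background on no array. Of the genes matched by name only, Tonsl rose in shRNA cells by 0.21 (SE 0.07, adjusted p = 0.0397; 0.18 with adjusted p = 0.123 without replicate A before 4-OHT), and Psmg2 and Traf3ip1 did not pass.

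With slide as a fixed block 33 of the 36 control calls and 29 of the 36 shRNA calls were kept, and as a random block 35 and 33. The calls lost under the fixed block were Tnfrsf4, Traf4 and Traf7 in control cells and Naip1, Nfkb1, Nfkb2, Tnfrsf4, Tnfrsf23, Tonsl and Xiap in shRNA cells. Every called change kept its sign there. Besides Nfkb1 and Xiap, lost calls whose size shrank by over 1.5 times were Traf4 in control cells (-0.040, adjusted p = 0.768) and, in shRNA cells, Tnfrsf23 (0.61, adjusted p = 0.513) and Tonsl (0.11, adjusted p = 0.404). Among calls that were kept, Birc3 (0.43), Tnfsf12 (0.63) and Tnfaip8 (-0.37) moved by over 1.5 times in control cells, and Tnfrsf26 (-0.52) and Traf6 (-0.71) in shRNA cells. Slide 1 sets 3 control arrays before 4-OHT against 1 after it, and 28 members passed, against 23.6% of all genes. Slide 3 sets 1 shRNA array before against 3 after, and 24 members passed, against 17.6% of all genes. Both fits assume that the lone array varies like the other group. All 12 fits leaving out an array kept 32 of the 36 control calls, the exceptions being Birc3, Tnfsf12, Traf4 and Traf7. They kept 29 of the 36 shRNA calls, the exceptions being Birc2, Naip1, Nfkb2, Tnfrsf23, Tonsl, Traf4 and Traf6. The 4 control exceptions passed in 6, 3, 7 and 7 of the 12 fits, and the 7 shRNA exceptions in 10, 8, 11, 3, 6, 5 and 3. Markers of other cells and of division were read beside these calls, and their part in them was not tested. Of 4 T cell markers tested, Lck and Lat fell in control cells (-1.28 and -0.48) and Cd3e and Lck in shRNA cells (-0.32 and -1.62). The Lat and Cd3e calls were lost with slide as a fixed block (adjusted p = 0.204 and 0.0526). They passed in 9 and 8 of the 12 fits leaving out an array. Of 2 B cell markers Cd22 was called higher in both vectors. Its shRNA call (1.77, adjusted p = 0.0470) passed in only 1 of the 12 fits leaving out an array. With slide as a fixed block the shRNA value of Cd22 was -0.15 (adjusted p = 0.694), and as a random block 0.93 (adjusted p = 0.232). Of 2 stromal and endothelial markers Pecam1 fell in both vectors (-1.10 and -1.05). In both vectors 0 of 10 mitotic markers passed in limma, with 1 (Bub1) at an unadjusted p under 0.05 in control cells and 2 (Cdk1 and Top2a) in shRNA cells. Of these 10, Mki67, Cdc20, Incenp and Cdca8 were saturated on all arrays of at least 1 group, so their changes are limited by the scanner.

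Other genes of the pathway, in a list drawn up for this comparison and outside the name rule, were looked at beside the members. Of 46 such genes 37 were tested, and 13 rose and 5 fell in control cells (48.6%, against 40.5% of all genes), with 15 and 7 in shRNA cells (59.5%, against 38.3%). With slide as a fixed block 11 of the 18 control calls and 15 of the 22 shRNA calls were kept. Ltb, the lymphotoxin beta ligand of the non-canonical branch, rose 9.19-fold in control cells (log2 3.20, SE 0.10, adjusted p = 5.15e-09) and 7.07-fold in shRNA cells. Map3k14 (NIK), the kinase of that branch, rose by 1.87 (SE 0.10, adjusted p = 1.10e-07) and 1.80. Tifa, a TRAF6-binding adaptor, rose by 1.94 (SE 0.08, adjusted p = 1.89e-08) and 1.79, and Map3k8, a kinase upstream of ERK, by 0.91 (SE 0.17, adjusted p = 0.00130) and 1.02. The Map3k8 call in control cells was lost with slide as a fixed block (0.62, adjusted p = 0.0574). Ikbke, an IKK-related kinase, fell by -2.09 (SE 0.13, adjusted p = 5.03e-07) and -1.68, and Cflar, the inhibitor of caspase-8 activation, by -0.75 (SE 0.08, adjusted p = 2.85e-05) and -0.86. Tab3 fell by -0.43 (SE 0.05, adjusted p = 5.99e-05) in control and -0.37 (adjusted p = 0.0001855) in shRNA cells. Casp8 fell by -0.26 (SE 0.07, adjusted p = 0.0215) in control and -0.34 (adjusted p = 0.00321) in shRNA cells. Its control call was kept in 9 of the 12 fits leaving out an array. Bcl10 fell in shRNA cells by -0.41 (adjusted p = 0.00857), a call lost with slide as a fixed block (-0.24, adjusted p = 0.0962). The IKK subunits Ikbkb, Chuk and Ikbkg did not pass in either vector.

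Genes widely used as NF-kB targets went in both directions. Of 22 listed, 14 were tested. In control cells 6 rose and 3 fell (64.3%, against 40.5% of all genes). In shRNA cells 4 rose and 4 fell (57.1%, against 38.3% of all genes). The metalloproteinase Mmp9 rose in control cells (fitted log2 6.85, SE 0.28, adjusted p = 1.99e-08) and in shRNA cells (6.58), from levels well above background on 1 and on 2 of 3 arrays. The adhesion molecule Icam1 rose at least 3.42-fold (fitted log2 3.57, SE 0.17, adjusted p = 5.66e-08) and at least 4.00-fold. Cxcl2, a neutrophil chemokine, rose by 0.91 (SE 0.17, adjusted p = 0.00159) in control and 0.78 in shRNA cells, the latter 0.70 (adjusted p = 0.0856) with slide as a fixed block. Ccl2, a monocyte chemokine, rose by 0.83 (SE 0.14, adjusted p = 0.000900) in control cells. Vcam1 fell at least 3.81-fold in control cells (fitted log2 -2.39, SE 0.39, adjusted p = 0.000602) and passed in shRNA cells (fitted log2 -1.96), where 2 of 3 arrays after 4-OHT were well above background. Ier3 fell by -1.63 (SE 0.09, adjusted p = 2.08e-07) and -1.71, and the chemokine Ccl4 by -1.09 (SE 0.14, adjusted p = 0.000116) and -1.26. Bcl2l1 rose by 0.42 (adjusted p = 0.000607) in control and 0.34 (adjusted p = 0.00267) in shRNA cells. Ccl5 fell by -0.41 (adjusted p = 0.0240) in shRNA cells. With slide as a fixed block 9 of 9 control and 5 of 8 shRNA target calls were kept. Bcl2l1 (adjusted p = 0.0575) and Ccl5 (adjusted p = 0.146) were lost there in shRNA cells.

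Before 4-OHT no member passed between the vectors in the limma fit, against 0.378% of all genes called, and 10 members (17.9%) had an unadjusted p under 0.05, against 22.3% of all genes. The 3 members of lowest adjusted p were Birc6, Tnfrsf22 and Tnfaip2. Birc6, a giant ubiquitin-conjugating IAP, read 1.04, 1.03 and 1.12 in control cells and 0.66, 0.49 and 0.13 in shRNA cells, a difference of -0.64 (SE 0.11, adjusted p = 0.0505). Tnfrsf22 read -2.24, -2.12 and -2.22 in control and -1.81, -1.89 and -1.70 in shRNA cells, a difference of 0.39 (SE 0.07, adjusted p = 0.0505). Tnfaip2 read 4.25, 4.08 and 4.11 against 4.37, 4.46 and 4.56, a difference of 0.31 (SE 0.07, adjusted p = 0.0716). The groups of each did not overlap, as for 18 members in all (background 32.5%). Birc6 and Tnfrsf22 passed in several alternative fits, with adjusted p of 0.0172 and 0.0404 without shRNA replicate A before 4-OHT. Leaving out that array also raised the share of all genes called before 4-OHT, to 3.29% from 0.378%. With slide as a fixed or as a random block no member passed between the vectors before 4-OHT, and 0% of all genes did. Tnf differed by 0.17 (SE 0.07, adjusted p = 0.215) between vectors before and by 0.08 (SE 0.07, adjusted p = 0.443) after 4-OHT.

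After 4-OHT 15 members passed between the vectors, 8 higher and 7 lower in shRNA cells, which is 26.8% against 16.7% of all genes (7.85% higher and 8.82% lower). With normexp background correction 15 members passed, 5 higher and 10 lower, but only 9 of them were among those called here. Over all genes that setting had a median difference of -0.127, with 539 of 1745 calls higher. Groups did not overlap for 31 members (background 38.6%). The differences were small, from -0.95 to 0.54 in log2. None of the 15 passed with slide as a fixed block (lowest adjusted p = 0.617) or as a random block (lowest adjusted p = 0.137), although 14 of 15 kept their sign under the fixed block. Of all genes 0.00664% passed under the fixed block and 0% under the random one. The member count was 4 without control replicate B after 4-OHT (2.05% of all genes called) and 4 without shRNA replicate B after 4-OHT (4%). It was 5 without shRNA replicate C after 4-OHT (3.31% of all genes called). Naip2, Tnfrsf21 and Traf7 alone passed in all 12 fits leaving out an array. The other 12 passed in between 2 (Birc3) and 10 (Birc6, Naip1 and Tnfrsf18) of those fits, with adjusted p of at most 0.1185. Beside these differences, Col1a2 (0.83) and Pecam1 (0.21) of the stromal and endothelial list and Cdk1 (0.49) and Top2a (0.50) of the mitotic list were higher in shRNA cells, Ptprc was lower (-0.78) and Cebpa higher (0.31). None of these 6 passed with slide as a fixed or random block. Their part in the result was not tested.

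Higher in shRNA cells were Tnfrsf21, by 0.54 (SE 0.09, adjusted p = 0.0120), and Naip2, by 0.43 (SE 0.08, adjusted p = 0.0140). Naip2 read 1.13, 1.24 and 1.26 in control cells and 1.69, 1.63 and 1.62 in shRNA cells after 4-OHT. The adaptors Traf3, Traf6 and Traf7 were also higher. Traf7 read 1.40, 1.42 and 1.43 against 1.71, 1.84 and 1.89, a difference of 0.40 (SE 0.07, adjusted p = 0.0130). Traf3, a brake on the non-canonical branch through degradation of NIK, read 1.29, 1.27 and 1.24 against 1.55, 1.62 and 1.73, a difference of 0.37 (SE 0.09, adjusted p = 0.0233). Traf6 read -1.79, -1.74 and -1.48 against -1.20, -1.21 and -0.99, a difference of 0.53 (SE 0.14, adjusted p = 0.0303). With slide as a fixed block Traf6 was at -0.023.

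Tnfaip2 was higher by 0.33 (SE 0.07, adjusted p = 0.0182), from 3.38, 3.39 and 3.36 to 3.66, 3.71 and 3.75, and Tnfrsf26 by 0.30 (SE 0.09, adjusted p = 0.0441), from 0.75, 0.78 and 0.75 to 1.10, 0.99 and 1.11. Tnfsf13b was higher by 0.51 (SE 0.12, adjusted p = 0.0236) on its brighter probe, whose values are given above, while its dimmer probe was lower by -0.48 in raw means. Of those with other probes well above background, Tnfrsf21 (0.56 and 0.49) and Traf6 (0.35) had other probes of the same sign.

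Lower in shRNA cells were Naip1, Tnfrsf18, Birc6, Tnfrsf12a, Traf3ip3, Birc3 and Relb. Naip1 read -5.07, -4.40 and -4.84 in control cells and -5.78, -5.83 and -5.55, not well above background, in shRNA cells, at least 1.32-fold lower (fitted log2 -0.95, SE 0.20, adjusted p = 0.0179). Tnfrsf18 read -3.62, -3.25 and -3.47 against -4.44, -4.21 and -3.91, a difference of -0.74 (SE 0.15, adjusted p = 0.0182). Birc6 read 0.79, 0.78 and 0.69 against 0.15, 0.25 and 0.10, a difference of -0.59 (SE 0.11, adjusted p = 0.0164). All 3 had shRNA arrays below every control array.

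Tnfrsf12a read 1.11, 1.19 and 1.08 against 0.88, 0.80 and 0.64, a difference of -0.35 (SE 0.08, adjusted p = 0.0196). Traf3ip3 read 1.26, 0.97 and 0.96 against 0.77, 0.70 and 0.74, a difference of -0.33 (SE 0.08, adjusted p = 0.0265). Relb read 0.69, 0.66 and 0.71 against 0.40, 0.38 and 0.46, a difference of -0.27 (SE 0.07, adjusted p = 0.0302). These 3 rose with 4-OHT in both vectors. Birc3 read 1.31, 1.09 and 1.06 against 0.91, 0.86 and 0.73, a difference of -0.32 (SE 0.09, adjusted p = 0.0424), while its dimmer probe was higher by 0.44, so its direction depends on the probe.

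**Figure D3:**
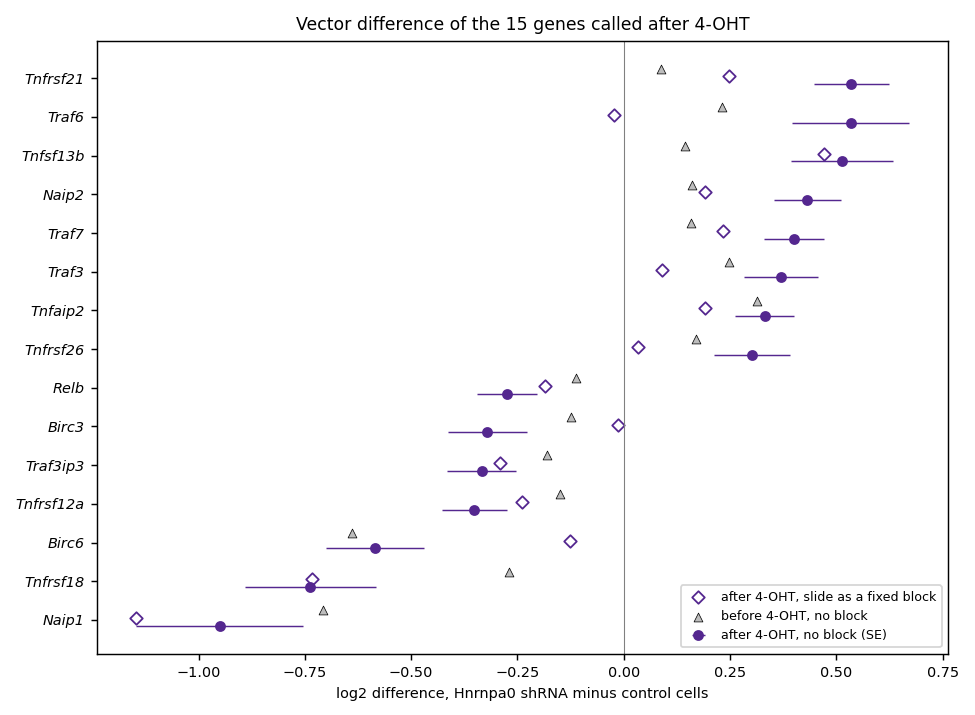
Log2 difference between shRNA and control cells (horizontal axis) of the 15 members that passed after 4-OHT; filled circles with bars are the difference after 4-OHT and its SE, open diamonds the same with slide as a fixed block, and triangles the difference before 4-OHT. Diamonds lie nearer 0 than circles for most genes, with Traf6 at -0.023 and Naip1 farther out.

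No member passed for the difference between the 4-OHT responses in the limma fit, and neither did any of all genes (0%), with 6 members (10.7%) at an unadjusted p under 0.05, against 5.25% of all genes. The 3 of lowest adjusted p were Tnfrsf21 at 0.45 (SE 0.13, 95% interval 0.17 to 0.73, adjusted p = 0.799), Naip2 at 0.27 (SE 0.11, adjusted p = 0.932) and Tnfrsf22 at -0.24 (SE 0.10, adjusted p = 0.932). The call of a gene in a single vector is therefore not shown to differ between vectors. In the pathway list 6 genes were higher and 3 lower in shRNA cells after 4-OHT (24.3%, against 16.7% of all genes), and none passed before it. None of the 9 passed with slide as a fixed or as a random block. Among NF-kB targets Il1b, at -0.72 (adjusted p = 0.0197), and Ccl4, at -0.66 (adjusted p = 0.0196), were lower after 4-OHT in the limma fit, and the other 12 did not pass (14.3% called, against 16.7% of all genes). Neither passed when slide was a fixed block (adjusted p = 0.831 and 0.848) or a random one (adjusted p = 0.188 and 0.193), and Il1b was well above background on 1 of 3 shRNA arrays after 4-OHT.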

How the data were processed

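RNA of 12 PUER cultures was hybridised to 12 one-colour Agilent arrays. Per the file headers, the authors used Agilent Feature Extraction, version 9.5.3.1 (9.5 per the submitters' processing notes). The deposited values are background-subtracted Cy3 intensity per spot, unscaled across arrays. The deposited series-wide values, which match that intensity within 0.497%, served as an alternative.

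Control and outlier-marked spots were dropped, spots of a probe averaged, and log2 intensity taken relative to the array's 75th percentile. Each gene was tested on the brightest of its probes that passed the filters. Such a probe had to be well above background on 3 or more arrays and to have values on 2 or more per group. Gene names were updated through RefSeq tables where transcript identifiers or symbols matched; of 41174 probes 8440 kept the name in the scanner output. limma 3.58.1 (in R 4.3.3, with version 1.17.8 of data.table) was fitted with 4 group means and 5 contrasts, checked on simulated data. Figures used Python 3.11.15, pandas 2.3.3 and matplotlib 3.10.9.

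Values were given for fixed NF-kB genes and the up to 12 largest changes each way with 4-OHT. Between vectors they were given for every member past the threshold, otherwise the 3 of lowest adjusted p. Pathway and target genes were given by their up to 4 largest called changes each way in each vector. Members and lists were chosen with earlier results of these data known. Alternatives were background correction, normalisation, filters, probe averaging, slide or replicate as a block, the 2 groups alone, single arrays left out, and outlier marks kept.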

Additional observations from a re-analysis of the deposited data

How the results depend on the processing

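The counts of members called with 4-OHT stayed within 1.5 times of 36 under every alternative, between 28 and 40 in control cells and between 24 and 37 in shRNA cells. Leaving out an array gave 32 to 40 and 30 to 36. Before 4-OHT the count between vectors, 0, became 3 with quantile normalisation (Birc6, Tnfaip2 and Tnfrsf22), with 1.12% of all genes called. It was 2 with the filter on all 3 arrays of a group (0.802% of all genes called). With outlier marks kept, a setting added after seeing the data, it was also 2 (0.501%), Birc6 and Tnfrsf22 in both. It was 1 with the deposited table (Tnfrsf22, 0.392% of all genes called) and 0 to 4 leaving out an array. After 4-OHT the count, 15, became 3 without a filter on dim probes (27396 genes tested, 1.31% of them called). It became 9 with the 2 groups alone (7.35% of all genes called). With slide as a fixed block it was 0 (0.00664% of all genes) and as a random block 0 (0%). Leaving out an array gave 4 to 19. The cause of these changes was not tested. With a replicate block the counts were 39, 37, 2, 17 and 0 in the order of the contrasts; the labels do not say that letters pair the arrays, and correlations of same-lettered arrays ran from -0.087 to 0.304, so this is given only here. The difference between the responses stayed at 0 leaving out an array.

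Directions turned for Birc3 after 4-OHT (0.060), and for Nfkb1 (0.26), Tnfrsf21 (0.14) and Malt1 (0.074) with 4-OHT in shRNA cells, when all probes of a gene were averaged. They turned for Traf6 after 4-OHT with slide as a fixed block (-0.023) and for Traf1 after 4-OHT with normexp (-0.41, adjusted p = 0.0433 by limma). The cause was not tested. Among all genes, those called between vectors before 4-OHT numbered 57, and 2 with normexp, 168 with quantile normalisation and 185 with a replicate block; after 4-OHT they numbered 2512, and 358 without a filter and 1 with slide as a fixed block. The number of arrays limits precision, and probes near background, such as those of Traf5, Tnfrsf9, Tnfrsf25, Naip1 and Tnfrsf10b, have bounds or wide intervals.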
